A study of Mus musculus with 12 samples.

Results

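The 9 genes described here belong to the hepatic urea cycle and its ammonia supply, and were followed across the livers of 12 mice on 3 diets. They were chosen by symbol: the count table has 49398 Ensembl gene IDs, and each of the 9 symbols matched a single ID. The members are the enzymes Nags, Cps1, Otc, Ass1, Asl and Arg1, the mitochondrial carriers Slc25a15 and Slc25a13, and the glutaminase Gls2, and all 9 of 9 passed the filter on low counts that left 13814 genes to test. The animals were wild-type C57BL/6J mice, aged 9 months when feeding began, and every group ate AIN-93G chow for 8 weeks. The control chow (CTRL) had no added oil, and the other chows had 1% (VLC1) or 5% (VLC5) by weight of an oil concentrate of very-long-chain polyunsaturated fatty acids (VLCPUFA). All mice were fasted for 5 h and killed with tribromoethanol before liver was taken. Each diet had 4 livers, 2 from females and 2 from males, and animal numbers such as N988 name single livers. The series text speaks of 6 livers per group, and 4 per diet were analysed here.

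The urea cycle turns ammonia and the amino group of aspartate into urea, which the kidney excretes. Its first steps run in the mitochondria of hepatocytes and its later steps in the cytosol, so that ornithine and citrulline, and the aspartate that feeds the cycle, have to cross the inner mitochondrial membrane. The pathway is strongest in periportal hepatocytes, near the incoming portal blood, whereas pericentral hepatocytes capture leftover ammonia as glutamine. Its genes are known to respond to protein intake, fasting, glucagon and glucocorticoids.

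Library totals ran from 5291385 to 15674130 estimated reads. Levels are given as CPM, estimated reads brought to a common library total and scaled with the trimmed mean of M-values (TMM). Differences are log2 fold changes ± SE, with a 2-sided p adjusted over all genes tested. A gene was called where edgeR's quasi-likelihood test gave an adjusted p under 0.05. The liver label matched its markers: the 8 hepatocyte markers, albumin among them, summed to between 102500 and 202124 CPM in every library. Core clock genes and the share of reads on noncoding genes also differed between livers. With a clock score per liver in the design no call of any gene at 5% oil against control was left. The livers are separate animals, and the p-values set a difference against the spread between animals of like diet and sex. Cage and harvest time are not given, so a diet difference cannot be told apart from either where it went with diet.

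At 5% oil Ass1 was lower than in controls, and it was the one member that passed the test. The 9 members together took 0.667% to 0.960% of the reads in control livers, 0.663% to 0.870% at 1% oil and 0.386% to 0.624% at 5% oil. All 4 livers on 5% oil therefore lay below all 8 others. This gap depended on Ass1, which is a large part of the sum. Ass1 made up 1687 of 5833 CPM in N987 on 5% oil and 2412 of 6288 CPM in N983 on 1% oil. With Ass1 taken out, N987 was not below N983. Of the 9 members, 1 was called lower and 0 higher, against 2.46% of all genes tested (1.19% higher and 1.27% lower). The log2 fold change was negative for 8 of 9 members, with a median of -0.66 against 0.01 for all genes tested. At an unadjusted p under 0.05 in edgeR there were 6 members, and 2010 of all 13814 genes tested. DESeq2 called 5 members (Otc, Ass1, Asl, Slc25a15 and Gls2), and 749 of all genes. In whole liver, fewer hepatocytes of a kind and less RNA per cell cannot be told apart.

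**Figure D1:**
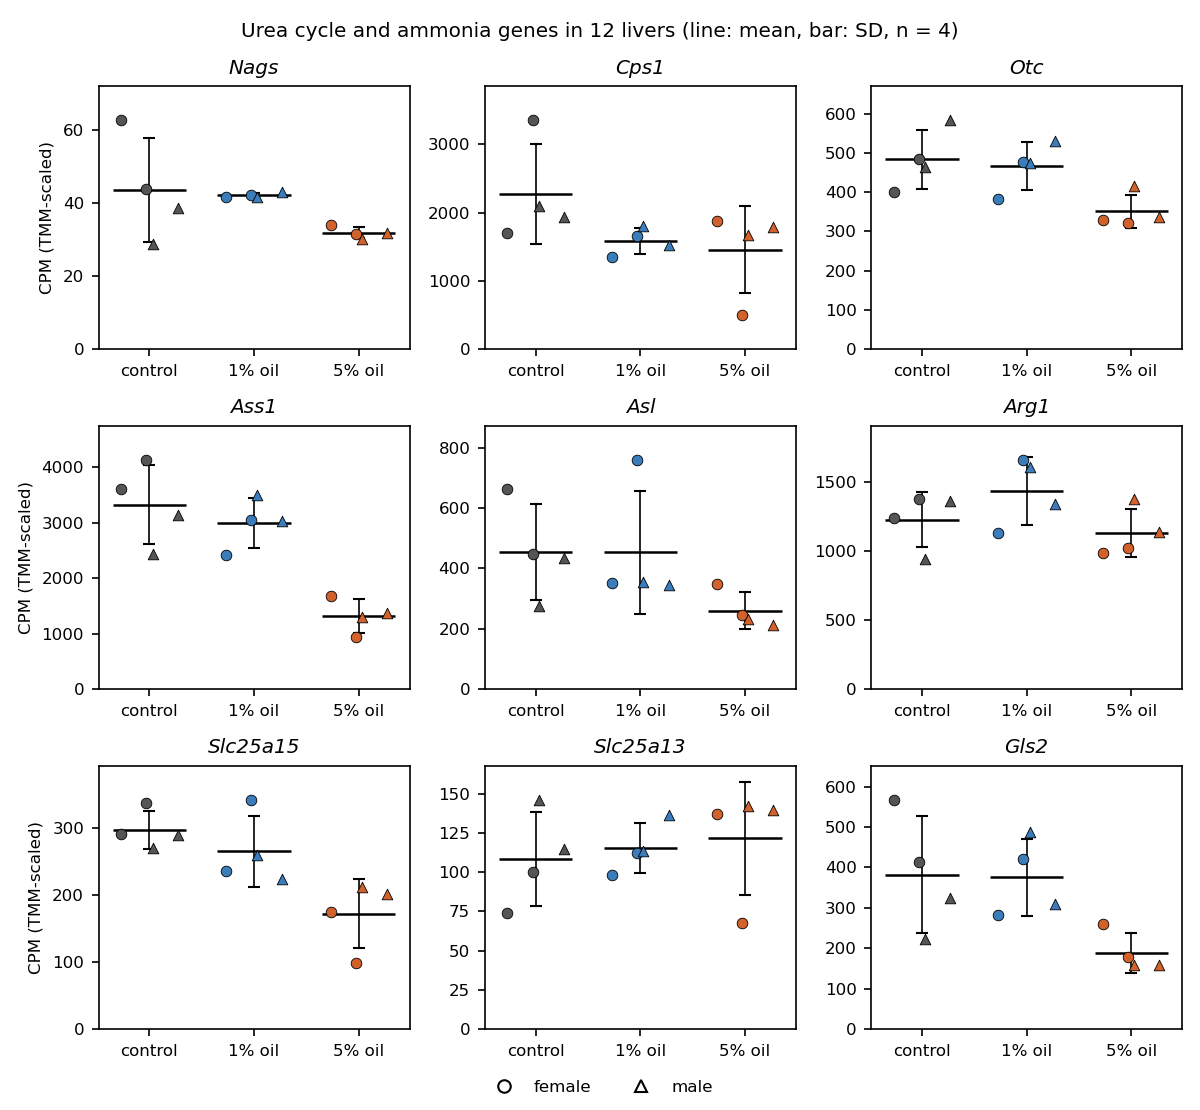
CPM (TMM-scaled, linear axes from 0) of the 9 genes in each liver by diet, with circles for females, triangles for males, a line at the mean and a bar of 1 SD (n = 4 per diet). In Ass1 and Slc25a15 the 5% livers sit below every control and every 1% liver, whereas Arg1 and Slc25a13 overlap throughout.

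Ass1 encodes argininosuccinate synthase, which joins citrulline to aspartate and so brings the nitrogen of aspartate into the cycle. Its level in control livers was 3604 CPM in N979, 4129 in N980, 2444 in N967 and 3139 in N968. On 1% oil it was 2412 in N983, 3057 in N984, 3503 in N971 and 3037 in N972. On 5% oil it was 1687 in N987, 938 in N988, 1302 in N975 and 1383 in N976. The highest 5% liver was below the lowest liver of either other diet, and both sexes showed this. Mean Ass1 was 3329 ± 715 CPM (SD, n = 4) in controls and 1328 ± 308 (n = 4) at 5% oil. Ass1 fell by 1.32 ± 0.21 on the log2 scale, a 2.50-fold difference (95% interval -1.78 to -0.86; edgeR's quasi-likelihood test, adjusted p = 0.00646). The call was kept in each of the 12 fits that left out 1 liver, where the log2 fold change ran from -1.48 to -1.16. Clock genes moved with diet as well, and with a clock score per liver in the design the Ass1 estimate was -1.26, with an adjusted p of 0.868 and 0 genes of the whole table called. That score was -2.15 to -1.29 in the 4 controls and 0.549 to 2.42 in the 4 livers on 5% oil, without overlap, so the 5% diet and the score cannot be told apart in these livers. Almost all Ass1 reads, 97.5%, were assigned to the coding transcript Ass1-201. In the authors' deposited table of 261 genes, whose comparison is not named, Ass1 is the only member listed, with a log2 value of -0.62, a p of 0.00202 and an adjusted p of 0.0894.

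**Figure D2:**
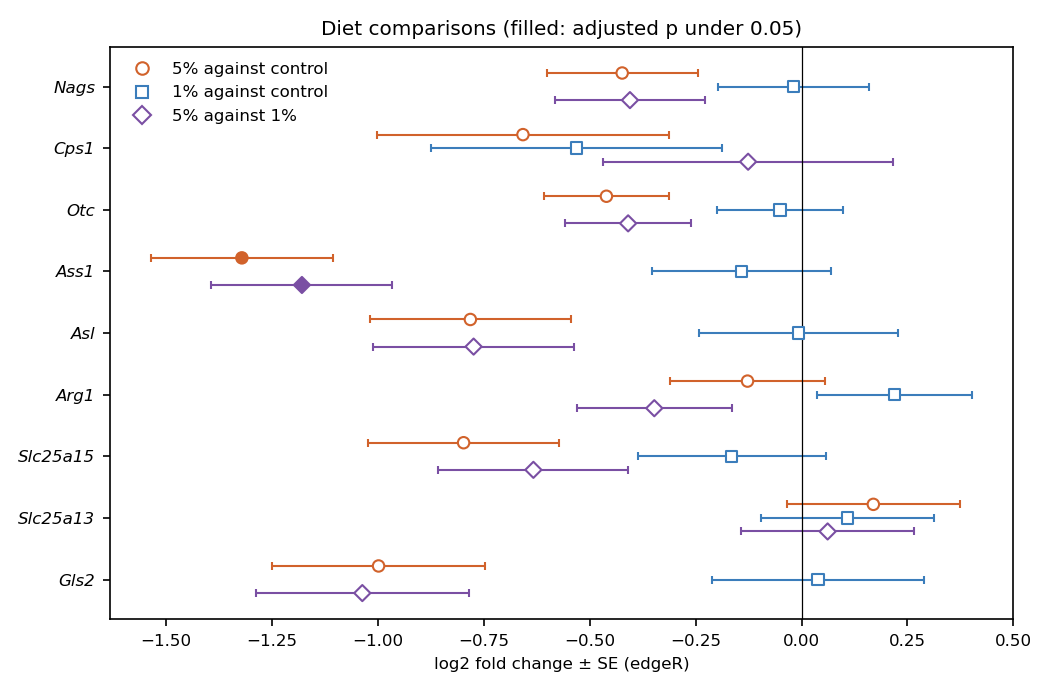
Log2 fold change ± SE from edgeR for the 9 genes in the 3 diet comparisons (circles, 5% against control; squares, 1% against control; diamonds, 5% against 1%), with filled symbols for an adjusted p under 0.05. Only the 2 Ass1 values that involve the 5% diet are filled, and the 1% values lie near 0 for most genes.

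The mitochondrial entry steps were measured through Nags, Cps1 and Otc, and none of the 3 passed the test. Cps1, carbamoyl phosphate synthetase, fixes free ammonia and is the committed step. Control livers had 1706, 3348, 2099.5 and 1938 CPM of Cps1 (N979, N980, N967 and N968 in that order). The 1% livers ranged from 1349 to 1803 CPM. On 5% oil, 3 livers had 1671 to 1874 CPM and N988 had 505. The 5% livers overlapped the controls, and the log2 difference of -0.66 ± 0.34 (edgeR's quasi-likelihood test, adjusted p = 0.420) was -0.33 ± 0.23 without N988 (adjusted p = 0.620). Nags makes N-acetylglutamate, the obligatory activator of Cps1. Its level was 28.8 to 62.6 CPM in controls, 41.5 to 43.0 at 1% oil and 30.2 to 34.1 at 5% oil. The 5% livers were all below the 1% livers but lay within the control range, and the difference from control was -0.42 ± 0.18 on the log2 scale (edgeR, adjusted p = 0.289). Otc, ornithine transcarbamylase, makes citrulline from carbamoyl phosphate. It measured 401 to 583 CPM in controls, 383 to 530 at 1% oil and 323 to 415 at 5% oil, with N975 the highest of the last group. Its log2 fold change at 5% oil was -0.46 ± 0.15 (edgeR, adjusted p = 0.134). DESeq2 called Otc, so its side of the threshold depended on the tool.

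The 2 cytosolic enzymes after Ass1 differed from each other in their values. Asl, argininosuccinate lyase, splits argininosuccinate into arginine and fumarate. It measured 661, 448, 275 and 434 CPM in the controls N979, N980, N967 and N968. At 1% oil, N984 had 758 CPM and the other livers 346 to 355. At 5% oil the values were 350, 246, 232 and 214 CPM in N987, N988, N975 and N976. These overlapped the controls, because N967 was low among the controls, and the log2 difference was -0.78 ± 0.24 (edgeR's quasi-likelihood test, adjusted p = 0.109). Arg1, liver arginase, releases urea and returns ornithine. Its CPM was 943 to 1377 in controls, 1133 to 1659 at 1% oil and 987.2 to 1375 at 5% oil, so all 3 ranges overlapped. The Arg1 difference at 5% oil was -0.13 ± 0.18 (95% interval -0.52 to 0.27; edgeR, adjusted p = 0.838), and its sign turned to 0.04 with limma on the deposited CPM, a scale on which the median of all genes was 0.16 higher. Arg1 is also made by myeloid cells. The 6 neutrophil markers summed to 0.579 to 6.37 CPM per liver, and the defining genes Retnlg, Ly6g, Mpo and Elane were at 0 reads in 7, 7, 9 and 10 of the 12 livers. The 8 Kupffer and macrophage markers summed to 114 to 482 CPM per liver. The part of myeloid cells in the Arg1 reads was not tested.

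The ratio of Ass1 to Arg1 within a liver does not depend on how libraries are scaled against each other. Per kilobase of coding sequence it was 1.81 to 2.35 in control livers, 1.44 to 1.78 at 1% oil and 0.720 to 1.34 at 5% oil. The 3 diets did not overlap in this ratio, which was computed after the values were seen and is given with no test. Per kilobase of whole transcript, UTRs included, the ratio was 2.01 to 2.61, 1.60 to 1.97 and 0.800 to 1.49 in the same order, again without overlap. On 5% oil it was below 1 in N988 and N975 with either length, and in N976 it was 0.953 with the coding and 1.06 with the whole length. With Cps1 or Asl in place of Arg1, the ratio per coding kilobase overlapped between diets. Over Cps1 it was 4.24 to 7.69 in controls, 6.51 to 7.25 at 1% and 2.82 to 6.76 at 5% oil. Over Asl it was 6.14 to 10.4, 4.54 to 11.1 and 4.29 to 7.27 in the same order. Of the ratios computed, only that to Arg1 set the diets apart.

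The 2 carriers went different ways in their estimates. Slc25a15 (ORC1) exchanges ornithine for citrulline across the inner mitochondrial membrane. It measured 290, 336, 270 and 289 CPM in the controls N979, N980, N967 and N968. The 1% livers had 235, 341, 259 and 223 CPM in N983, N984, N971 and N972. The 5% livers had 175, 98.1, 212 and 201 CPM in N987, N988, N975 and N976. Every 5% liver was below every liver of the other diets. Even so, Slc25a15 did not pass the test at 5% oil, its log2 difference being -0.80 ± 0.22 (edgeR's quasi-likelihood test, adjusted p = 0.0808), and it was -0.57 ± 0.18 without N988 (adjusted p = 0.184). DESeq2 called it. Of the 9 members, 2 (Ass1 and Slc25a15) had 5% livers wholly below control livers, where 2.98% of all genes tested did so, 3.11% lay wholly above and 6.08% were apart in either direction. Slc25a13 (citrin, or AGC2) exports the aspartate that Ass1 uses. It measured 74.0 to 146 CPM in controls, 98.1 to 137 at 1% oil and 67.6 to 142 at 5% oil, where N988 was the low one and the other livers had 137 to 142. Its difference at 5% oil was 0.17 ± 0.20 (edgeR, adjusted p = 0.797), and it was -0.03 when N987 was left out.

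Gls2, the liver-type glutaminase, frees ammonia from glutamine beside Cps1. It measured 566, 414, 223 and 326 CPM in the controls N979, N980, N967 and N968. At 1% oil it was 283, 420, 488 and 310 CPM in N983, N984, N971 and N972, and at 5% oil 260, 177, 158 and 158 CPM in N987, N988, N975 and N976. The 5% livers were all below the 1% livers, but N987 was above the lowest control, N967. The log2 fold change against control was -0.999 ± 0.251, which missed the threshold (edgeR's quasi-likelihood test, adjusted p = 0.0530). Leaving out N967, N971 or N983 brought it past, at adjusted p values of 0.0335, 0.0309 and 0.0435, and leaving out N988 gave 0.165. It also passed with the noncoding share of each liver in the design (0.0480) and with DESeq2 (0.00495). Most Gls2 reads were not assigned to a coding transcript. Over all livers 64.9% went to Gls2-207, annotated as a retained intron, and 9.13% to the coding Gls2-201. Gls2-207 averaged 256 ± 174 CPM (SD, n = 4) in controls, 279 ± 64.2 (n = 4) at 1% oil and 101 ± 29.7 (n = 4) at 5% oil. Gls2-201 averaged 33.4 ± 27.3, 13.3 ± 13.7 and 29.4 ± 28.4 CPM in the same order, each with n = 4. The lower Gls2 total on 5% oil thus lay mainly on Gls2-207, and the coding Gls2-201 varied about as much as its mean within a diet. Nags was alike in this respect, with 87.8% of its reads on Nags-203, a processed transcript, and 6.45% on the coding Nags-201. The split of reads between transcripts that share exons is an estimate, and whether strand was used in it is not given in the sources used here.

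**Figure D3:**
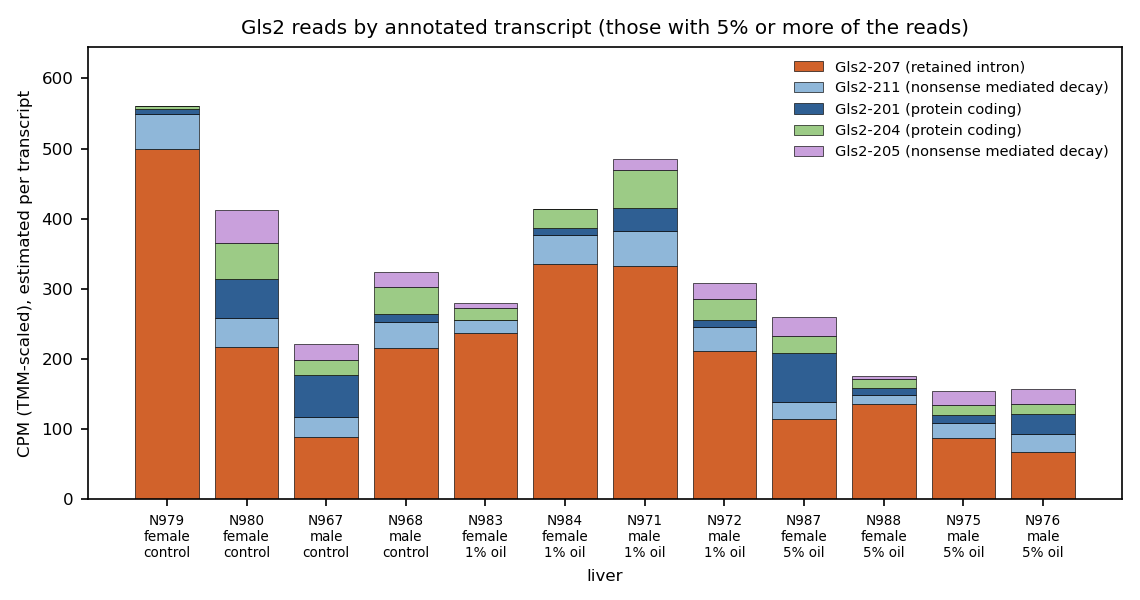
Estimated CPM of the Gls2 transcripts that hold 5% or more of the gene's reads, stacked for each of the 12 livers (TMM-scaled, axis from 0). The retained-intron transcript Gls2-207 is the tallest part of every bar, at 499.96 CPM in control N979 and 68.1 CPM in N976 on 5% oil.

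On 1% oil no member stood apart from control. Of the 9 members 0 were called by edgeR's quasi-likelihood test, against 0.224% of all genes. DESeq2 called 0 members, and 277 of all genes. At an unadjusted p under 0.05 in edgeR there were 0 members, and 1530 of all 13814 genes tested. None of the 9 had 1% livers wholly apart from control livers, where 3.87% of all genes did (1.83% above and 2.03% below). The median log2 fold change of the members was -0.02. Ass1 was at -0.14 ± 0.21 (95% interval -0.60 to 0.31) and Gls2 at 0.04 ± 0.25 (95% interval -0.50 to 0.58). Cps1 was the lowest at -0.53 ± 0.34 (95% interval -1.27 to 0.21; edgeR, adjusted p = 0.596). Between the doses, 1 of 9 members was called lower at 5% than at 1% oil and 0 higher, where 1.33% of all genes were called (0.861% higher and 0.471% lower). This was Ass1, which fell by 1.18 ± 0.21 on the log2 scale (edgeR, adjusted p = 0.0266). The call between doses was lost without N971 (adjusted p = 0.0857), N972 (0.0573), N984 (0.0890) or N976 (0.0807), with no sex term (0.0745) and with the clock score (0.281). Gls2 differed between doses by -1.04 ± 0.25 (edgeR, adjusted p = 0.0588, and 0.0494 in a fit of only those groups), Asl by -0.77 ± 0.24 (0.119) and Slc25a15 by -0.63 ± 0.22 (0.167). Gls2 passed between the doses when N979 was left out (adjusted p = 0.0327). Of the 9 members, 4 (Ass1, Slc25a15, Nags and Gls2) had 5% livers wholly below the 1% livers, where 3.55% of all genes did, 4.1% lay wholly above and 7.65% were apart in either direction. The comparisons of 5% with control and with 1% share the 5% livers.

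Levels of different genes were set side by side only per kilobase, and their order depended in part on which length was used. Reads fall on whole transcripts, so levels are given per kilobase of coding sequence and then per kilobase of whole transcript, a length added after the values were seen. All reads of a gene were divided by the length of its most-read coding transcript. That transcript held 9.13% of the reads of Gls2, 6.45% of those of Nags and 43.8% of those of Asl. The levels of these genes per kilobase are therefore rough. In control livers Ass1 was the highest with both, at 2694 ± 579 and 1963 ± 422 CPM per kilobase (SD, n = 4). Arg1 was next with both, at 1269 ± 208 and 832 ± 136 (n = 4). Cps1 was at 505 ± 163 and 409 ± 132, and Otc at 455 ± 71.2 and 208 ± 32.6 (n = 4), so that these enzymes overlapped per coding kilobase and did not per transcript kilobase. Slc25a15, whose transcript has 3430 bases of which 903 are coding, was at 328 ± 31.2 and 86.4 ± 8.20 (n = 4), level with Asl at 327 ± 114 by the first length and below its 249 ± 86.9 by the second. Gls2 stood at 212 ± 80.6 and 149 ± 56.6 (n = 4) and overlapped Asl with both. Slc25a13 at 53.6 ± 14.8 and 35.4 ± 9.78 and Nags at 27.5 ± 8.96 and 21.4 ± 6.98 (n = 4) were the lowest with both and overlapped each other. On 5% oil Ass1 and Arg1 had overlapping ranges with both lengths, at 1074 ± 249 and 1167 ± 181 CPM per coding kilobase and at 783 ± 182 and 765 ± 119 per transcript kilobase (n = 4).

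Sex was balanced within each diet, and 0 of 9 members differed between females and males by edgeR's quasi-likelihood test, against 8.94% of all genes called (3.6% higher and 5.34% lower in females). There were 2 members at an unadjusted p under 0.05 in edgeR, and 3961 of all 13814 genes tested. DESeq2 called 1 member, and 2079 of all genes. Asl was 0.58 ± 0.19 higher in females on the log2 scale (edgeR, adjusted p = 0.0745), and Slc25a13 was at -0.43 ± 0.17 (adjusted p = 0.112). Asl passed without N983 (adjusted p = 0.0489) and Slc25a13 without N987 (0.0341). Gls2 was at 0.38 ± 0.21 and Ass1 at 0.06 ± 0.17. Within females, Ass1 at 5% oil was -1.56 ± 0.29 against control, with 2 livers per group (edgeR, adjusted p = 0.0188). Within males it was -1.06 ± 0.29 and did not pass (edgeR, adjusted p = 0.301). The test of the difference between the sexes gave -0.50 ± 0.40 (edgeR, adjusted p = 1.00). For Slc25a15 it was -0.76 ± 0.40 and for Gls2 -0.37 ± 0.45. At 1% oil the same test gave -0.73 ± 0.40 for Ass1, 0.10 ± 0.40 for Slc25a15 and -1.02 ± 0.45 for Gls2. No member and no gene in the table was called for a diet effect that differed by sex (0 of 9 and 0% of all genes, at either dose). At an unadjusted p under 0.05 there were 0 members at 5% and 1 at 1% oil, with 645 and 517 of all genes, and DESeq2 called 0 members.

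Single livers stood out in their ranks. Female N988, on 5% oil, was among the lowest 3 of the 12 livers for all 9 members and the lowest for 5 of them. Relative to its own diet group it was far down for Cps1 (505 CPM) and Slc25a13 (67.6 CPM), yet its Arg1 level of 1021 CPM was above that of N987. Its Nags (31.5 CPM), Asl (246 CPM) and Gls2 (177 CPM) also lay within the range of the other livers on 5% oil. N988 also had the highest clock score, 2.42, and its share of reads on noncoding genes, 1.24%, was the highest on 5% oil, within the 0.646% to 1.91% of all livers. The part of these in its low values was not tested. Among controls the male N967 was the lowest for Nags, Ass1, Asl, Arg1, Slc25a15 and Gls2.

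**Figure D4:**
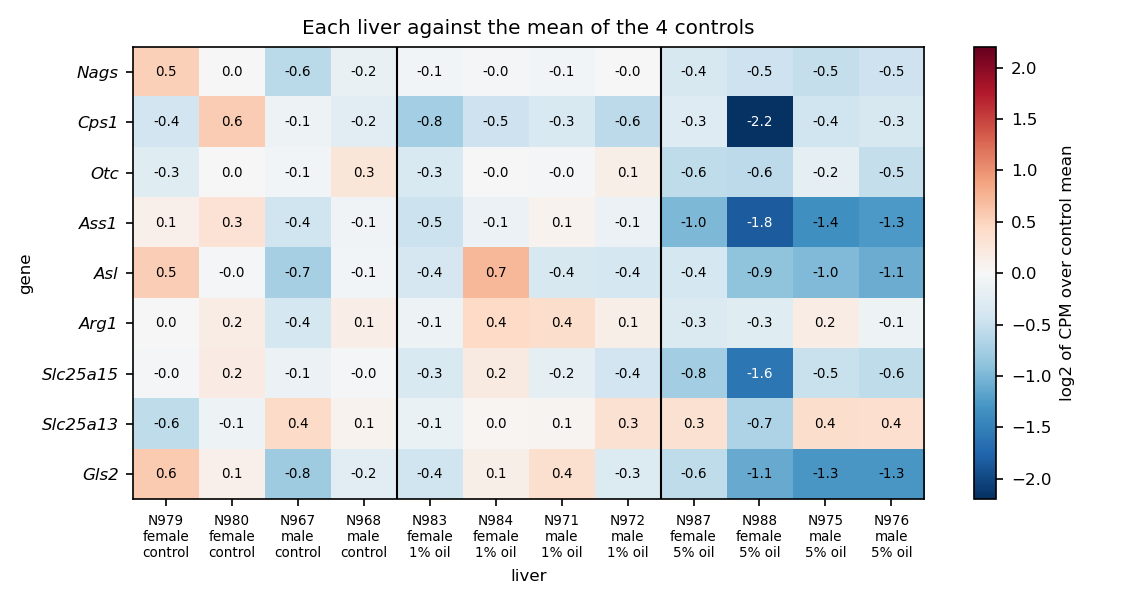
Log2 of each liver's CPM over the mean of the 4 controls, for the 9 genes (rows) and 12 livers (columns, with animal number, sex and diet), in blue where lower and red where higher. Ass1 is at or below -0.98 in all 4 livers on 5% oil, and N988 has the lowest values for Cps1 and Slc25a15.

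Genes that supply the cycle with nitrogen and recover its carbon were also read. Of 13 tested genes of this list, 1 was called lower and 0 higher at 5% oil, against 1.27% and 1.19% of all genes. The list had a median log2 fold change of -0.22. The called gene was Got1, the cytosolic aspartate aminotransferase. Got1 was at 233 to 546 CPM in controls, 261 to 865 at 1% oil and 71.1 to 161 at 5% oil, so the 5% livers were below all others. It fell by 1.63 ± 0.38 against control on the log2 scale (edgeR's quasi-likelihood test, adjusted p = 0.0465). It fell by 1.95 ± 0.39 against 1% oil (edgeR, adjusted p = 0.0390). The call against control was lost on leaving out any one of N968, N979, N980, N971, N983, N976, N987 or N988, with adjusted p values from 0.0554 to 0.160. The call against 1% oil was lost without N968, N971, N983, N984, N976, N987 or N988 (0.0587 to 0.152). Noncoding share in the design ended both Got1 calls (adjusted p = 0.0501 against control and 0.172 against 1% oil), as did the clock score (0.906 and 0.284) and a fit with no sex term (0.0617 and 0.0780). The call against 1% oil was also lost in a fit of only those groups (0.0571). Fh1, the fumarase that takes up the fumarate made by Asl, was at -0.37 ± 0.17 (edgeR, adjusted p = 0.335). Gpt, an alanine aminotransferase, was at -0.46 ± 0.23 (adjusted p = 0.384).

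Arginine and ornithine metabolism had 0 of 9 tested genes called at 5% oil and a median of 0.02. Oat, ornithine aminotransferase, which carries ornithine out of the cycle, was at 605 to 1020 CPM in controls and 216 to 563 at 5% oil. These groups did not overlap, but the log2 difference of -0.9996 ± 0.308 did not pass (edgeR, adjusted p = 0.120), though DESeq2 called Oat (0.0262). Agmat, annotated as agmatinase, was at -0.74 ± 0.21 (adjusted p = 0.0773) and passed without N967 (0.0408) and with DESeq2 (0.0178). Of the transporters of glutamine, ammonia and urea, 0 of 7 tested genes were called, with a median of -0.06. The amino acid carrier Slc38a4 was at -0.44 ± 0.22 (edgeR, adjusted p = 0.372) and the ammonia transporter Rhbg at -1.15 ± 0.56 (adjusted p = 0.384). Pericentral ammonia capture had 0 of 4 genes called and a median of -0.21. Glul, the glutamine synthetase of pericentral hepatocytes, was at -0.03 ± 0.36, and the carriers Slc1a4 and Slc1a2 were at -0.83 ± 0.45 and -0.30 ± 0.38. At 1% oil none of these 4 lists had a gene called, against 0.224% of all genes.

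Of 14 listed regulators, 2 were called lower and 0 higher at 5% oil, against 1.27% and 1.19% of all genes. The list's median was 0.10. Ppargc1a, the coactivator PGC-1α of the fasting response, was at 7.99 to 15.1 CPM in controls and 2.09 to 6.71 at 5% oil. Ppargc1a fell by 1.64 ± 0.38 on the log2 scale (edgeR's quasi-likelihood test, adjusted p = 0.0425). Foxo3, a forkhead factor held back by insulin signalling, was at 36.0 to 49.9 CPM in controls and 14.0 to 33.2 at 5% oil. Foxo3 fell by 1.01 ± 0.23 (edgeR, adjusted p = 0.0380). Both calls were lost on leaving out any one of N968, N979, N980, N971, N972, N976, N987 or N988, with adjusted p values from 0.0543 to 0.143 for Ppargc1a and from 0.0514 to 0.127 for Foxo3. With the clock score in the design these were 0.868 and 0.891, with no sex term 0.0824 and 0.0830, and with only the compared groups 0.0513 and 0.0911. Onecut1 (HNF6), at 3.09 ± 0.78, and Cebpa (C/EBPα), at 0.64 ± 0.19, did not pass (edgeR, adjusted p = 0.0717 and 0.111), and both passed without N975 (0.0165 and 0.0338). DESeq2 called Onecut1 (0.00163), and limma on the deposited CPM called both (0.0393 and 0.0467).

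Promoter sequence was at hand for 5 of the 9 members (Ass1, Slc25a13, Slc25a15, Nags and Otc) in RefSeq on build GRCm38.p6. The 250 bases before each start were searched on both strands for 8 short motifs. The E-box CACGTG, a site type of CLOCK-BMAL1 and other bHLH factors, was in 3 of 6 member windows and in 6.02% of 32851 windows. Those 3 windows had 75.6% (Ass1), 62.8% (Slc25a13) and 80.4% (Slc25a15) G and C, against a median of 52.4% over all windows, so the share over all windows is not one of like base composition. It is shown because the clock genes also moved with diet. It lay 36 bases before the Ass1 start, 125 before that of Slc25a13 and 77 before one of the 2 Slc25a15 starts. Each window is written 5′ to 3′ on the gene's strand, with the E-box in capitals. Ass1 is at chr2:31470020-31470269 (+), Slc25a13 at chr6:6217174-6217423 (-) and Slc25a15 at chr8:22398278-22398527 (-).
Ass1: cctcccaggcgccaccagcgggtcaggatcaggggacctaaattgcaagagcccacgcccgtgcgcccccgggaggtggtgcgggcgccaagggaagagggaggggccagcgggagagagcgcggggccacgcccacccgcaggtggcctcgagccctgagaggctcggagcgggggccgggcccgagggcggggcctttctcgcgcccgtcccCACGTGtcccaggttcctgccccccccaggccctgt
Slc25a13: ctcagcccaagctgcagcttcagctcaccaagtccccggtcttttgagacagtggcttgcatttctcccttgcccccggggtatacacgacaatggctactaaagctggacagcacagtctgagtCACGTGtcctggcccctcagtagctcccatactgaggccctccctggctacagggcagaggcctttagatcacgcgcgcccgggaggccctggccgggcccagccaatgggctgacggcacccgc
Slc25a15: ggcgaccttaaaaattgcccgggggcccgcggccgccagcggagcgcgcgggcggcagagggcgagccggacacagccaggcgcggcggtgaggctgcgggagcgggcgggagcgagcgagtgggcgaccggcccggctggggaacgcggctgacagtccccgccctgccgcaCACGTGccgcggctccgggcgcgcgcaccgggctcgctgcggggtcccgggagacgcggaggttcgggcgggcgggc
Ass1 and Slc25a15 were the members whose 5% livers lay wholly below controls, and Slc25a13, with the same letters, was not lower. The part of the E-box in these values was not tested. The other motifs were the CRE TGACGTCA (in 1.55% of all windows), the C/EBP site TTGCNNAA (9.56%), an HNF4 site CAAAGTCCA (0.384%), the D-box TTATGTAA (0.819%), the TATA box TATAAA (12.4%), a PPAR element (0.0335%) and a glucocorticoid element (0.00913%). None of these letters was in the 6 windows, and a match or its lack is a description of the sequence only.

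Markers of liver zones were set beside the members, since the cycle is periportal. Of 12 periportal markers, 0 were called at 5% oil, 10 had a negative log2 fold change and the median was -0.67. Their summed level was 4031 to 5549 CPM in controls, 2367 to 7973 at 1% oil and 1609 to 3597 at 5% oil. Most of that difference lay in Pck1, named after its values were seen, and Tat. Mean Pck1 was 1577 ± 518 CPM (SD, n = 4) in controls and 467 ± 618 (n = 4) at 5% oil, and mean Tat 1692 ± 446 and 378 ± 359 (n = 4). Neither passed edgeR's test (Pck1 -1.94 ± 0.90, adjusted p = 0.367), and Cyp2f2, an abundant marker, averaged 424 and 385 CPM. Sds, serine dehydratase, was called lower at 5% than at 1% oil (-2.22 ± 0.42; edgeR's quasi-likelihood test, adjusted p = 0.0390). That call was lost without N968, N971, N972, N984, N976, N987 or N988 (adjusted p from 0.0523 to 0.125), and with noncoding share (0.0819), the clock score (0.281) or no sex term (0.0752). Against control Sds was at -1.67 ± 0.42 (edgeR, adjusted p = 0.0628), Tat at -2.18 ± 0.71 (0.165) and Hsd17b6 at 0.87 ± 0.25 (0.0869). Sds passed without N967 (0.0261) or N975 (0.0459), and Tat without N984 (0.0412) or N975 (0.0118). DESeq2 called Sds (0.000659) and Hsd17b6 (0.0279), limma voom Sds (0.0479) and Tat (0.0307), and limma on the deposited CPM Tat (0.0336) and Hsd17b6 (0.0365). Sds also passed with noncoding share in the design (0.0165). Of 12 pericentral markers, 1 was called higher and 1 lower at 5% oil, against 1.19% and 1.27% of all genes. Their median was 0.14, with sums of 8598 to 9347 CPM in controls and 8723 to 14975 at 5% oil. Cyp2c29 rose by 1.71 ± 0.31 (edgeR, adjusted p = 0.0124), a call lost without N968 (0.0602), with the clock score (0.868) or with no sex term (0.0660). It was 1.79 ± 0.31 higher at 5% than at 1% oil (edgeR, adjusted p = 0.0256), a call lost without N971, N983, N984 or N976, with the clock score (0.281) or with no sex term (0.101). Gulo fell by 0.77 ± 0.18 (edgeR, adjusted p = 0.0380), a call lost in 9 of 12 fits without 1 liver, those that left out N967, N968, N980, N983, N984, N975, N976, N987 or N988. The clock score (0.917), no sex term (0.0802), only the compared groups (0.0584) and limma on deposited CPM (0.0523) also ended it. Cyp7a1 was at 1.27 ± 0.49 and Cyp2e1 at 0.50 ± 0.22. The part of zonal composition in the members' values was not tested.

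General hepatocyte markers had 0 of 8 called at 5% oil, all 8 with a negative log2 fold change, a median of -0.36 and sums of 118613 to 202124 CPM in controls against 102500 to 127757. Fgb and Ahsg led them at -0.51 ± 0.18 and -0.38 ± 0.16. Markers of other liver cells had no gene called either. Kupffer and macrophage markers had a median of -0.49 over 8 genes, with sums of 221 to 482 CPM in controls and 114 to 299 at 5% oil, and Clec4f at -0.49 ± 0.23 and Marco at -0.78 ± 0.43. Endothelial markers had a median of -0.44 over 5 genes (97.8 to 175 CPM against 82.7 to 116), with Stab2 at -0.58 ± 0.26 and Clec4g at -0.59 ± 0.27. Stellate cell markers had a median of -0.29 over 6 genes (278 to 414 CPM against 271 to 299), with Ecm1 at -0.34 ± 0.16 and Lrat at -0.35 ± 0.26. Cholangiocyte markers had a median of -0.28 over 5 genes (31.2 to 49.4 CPM against 26.2 to 53.1), with Krt7 at -0.61 ± 0.46 and Epcam at 0.62 ± 0.48. Lymphocyte markers had a median of -0.15 over 5 genes (3.29 to 8.16 CPM against 1.74 to 7.499), with Cd3g at -0.81 ± 0.51 and Cd79a at 0.50 ± 0.64. Of the neutrophil markers 2 of 6 could be tested, S100a9 at 0.94 ± 0.58 and S100a8 at 0.72 ± 0.68.

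Clock genes moved with the 5% diet in both directions. Of 8 genes with a late-day or evening peak, 5 were called higher, and of 5 with an opposite phase, 4 were called lower. Among all genes tested 1.19% were called higher and 1.27% lower. Dbp rose by 5.36 ± 0.83, Bhlhe41 by 4.99 ± 0.59, Per3 by 3.27 ± 0.50, Tef by 1.79 ± 0.29 and Hlf by 1.14 ± 0.21 on the log2 scale. Npas2 fell by 3.31 ± 0.53, Nfil3 by 2.09 ± 0.34, Bmal1 by 2.02 ± 0.45 and Cry1 by 1.83 ± 0.26. Dbp was not called by limma voom (5.39 ± 1.58, adjusted p = 0.0955). Ciart (2.07 ± 1.13), Per2 (0.63 ± 0.36) and Clock (-0.16 ± 0.26) were not called, though Ciart passed without N984 (adjusted p = 0.0230). On 1% oil Tef alone was called (1.65 ± 0.29; edgeR's quasi-likelihood test, adjusted p = 0.0292), and that call was lost without N967, N968, N980, N971, N972 or N984, with no sex term (0.158) and with only the compared groups (0.0649). Bhlhe41 was also called between the doses (1.97 ± 0.42; edgeR, adjusted p = 0.0424), a call lost in 9 of 12 fits without 1 liver, all but those without N979, N980 or N975. Noncoding share in the design (0.177), upper-quartile factors (0.0503), voom (0.0666), no sex term (0.134), only the compared groups (0.0505) and the clock score (0.484) ended it too. The Bmal1 call against control was lost without N967, N979, N980, N971, N976, N987 or N988, with noncoding share in the design (adjusted p = 0.0569) and with no sex term (0.0824). The clock score, built from these 13 genes, ran from -0.599 to 1.16 at 1% oil, above every control and overlapping the 5% livers. The part of harvest time in the members' values was not tested.

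The 5 genes most like Ass1 over the 12 livers, once the mean of each sex was taken out, were found among 10549 expressed genes. They were Ppa1 (Pearson r = 0.96), C9 (0.95), Serping1 (0.94), Zap70 (0.93) and Tyw5 (0.93), given as a description, since the livers share the diet contrast. C9, a terminal complement component made in liver, was at -2.45 on the log2 scale at 5% oil (edgeR's quasi-likelihood test, adjusted p = 4.47e-05). Serping1, the C1 inhibitor, was at -0.62 (edgeR, adjusted p = 0.0449). Zap70 was at -1.86 (edgeR, adjusted p = 0.0136). Ppa1, an inorganic pyrophosphatase, at -0.49, and Tyw5, at -0.67, did not pass (edgeR, adjusted p = 0.123 and 0.0910).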

How the data were processed

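Poly(A) RNA from 12 mouse livers was sequenced with a stranded kit, per the labels' protocols. The authors used kallisto, edgeR and limma with build GRCm39, per the submitters' processing notes, and versions, annotation and strand use are not given in the sources used here. They deposited estimated counts per gene and per transcript (11.7% of values not whole), CPM, and a table of log2 fold changes, p-values and a score for 261 genes. Expected counts deposited by the authors were rounded here, filtered with filterByExpr (13814 of 49398 genes kept) and fitted in edgeR 4.0.16 (TMM, robust quasi-likelihood F test, diet plus sex, all 12 livers, Benjamini-Hochberg over all genes tested). A diet by sex fit gave the interactions. The clock score was the mean standardized log2 CPM of 8 clock genes minus that of 5 of opposite phase. Symbols matched 48845 gene IDs, and 553 had none. Coding lengths came from the most-read coding transcript in GENCODE M21, in place of the RefSeq proteins planned, with its whole length as an alternative. Members, lists and the rule for named genes (all members; in each list the called genes and up to 2 with the smallest p; the 5 genes most correlated with a called member) were chosen with earlier results of these data known. Alternatives used DESeq2 1.42.0, limma 3.58.1 (voom, and log2 of deposited CPM + 0.5), other factors and filters, other designs, and leaving out each liver. The script was tested on simulated data for 5% against control. It called 34% of 100 genes changed by 1 on the log2 scale and 82% of 100 changed by 2. It also called 6 genes that were not changed. The changed genes were drawn at random from expressed genes, so these shares need not hold for the members. A member that did not pass may still differ.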

Additional observations from a re-analysis of the deposited data

Results flagged for a closer look

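Among 27 groups of 4 livers, 1 gene and 1 diet each, 4 had a liver set far from the others by Dixon's test, a test that by chance flags about 1 group in 20. Cps1 in N988 on 5% oil was 505 CPM, against 1671 to 1874 in the other livers of that diet. Slc25a13 in the same liver was 67.6 CPM, against 137 to 142. Otc in N975 on 5% oil was 415 CPM, against 323 to 336. Asl in N984 on 1% oil was 758 CPM, against 346 to 355, and without N984 the log2 difference between 5% and 1% oil was -0.53 in place of -0.77.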

How the results depend on the processing

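In every alternative and on leaving out any liver, Ass1 at 5% oil stayed lower than control, and it was called in all of them but the fit with the clock score. No paired analysis was possible because the replicate names are animal numbers that no groups share. For 5% against control, 340 of all genes were called, and 1011 with no filter on low counts, 749 with DESeq2, 107 without the sex term, 574 after adding noncoding share as a covariate, 0 with the clock score in the design, 201 in fits of only the compared groups and 138 to 479 on leaving out 1 liver. For 5% against control, 1 of the members was called, and 4 with no filter on low counts, 5 with DESeq2, 2 after adding noncoding share as a covariate, 0 with the clock score in the design and 1 to 2 on leaving out 1 liver. For 1% against control, 31 of all genes were called, and 649 with no filter on low counts, 50 with the stricter filter, 277 with DESeq2, 54 with limma on deposited CPM, 10 without the sex term, 2 with the clock score in the design, 53 in fits of only the compared groups and 13 to 184 on leaving out 1 liver. For 5% against 1%, 184 of all genes were called, and 1276 with no filter on low counts, 707 with DESeq2, 280 with limma on deposited CPM, 8 without the sex term, 37 after adding noncoding share as a covariate, 0 with the clock score in the design, 306 in fits of only the compared groups and 13 to 597 on leaving out 1 liver. For 5% against 1%, 1 of the members was called, and 3 with no filter on low counts, 3 with DESeq2, 0 without the sex term, 0 with the clock score in the design, 2 in fits of only the compared groups and 0 to 2 on leaving out 1 liver. For female against male, 1235 of all genes were called, and 2375 with no filter on low counts, 2079 with DESeq2, 327 after adding noncoding share as a covariate, 467 with the clock score in the design and 594 to 2356 on leaving out 1 liver. For female against male, 0 of the members were called, and 1 with no filter on low counts, 1 with DESeq2, 1 with limma on deposited CPM and 0 to 1 on leaving out 1 liver. For 5% by sex, 0 of all genes were called, and 229 with no filter on low counts, 43 with DESeq2, 8 after adding noncoding share as a covariate and 0 to 2 on leaving out 1 liver. For 1% by sex, 0 of all genes were called, and 109 with no filter on low counts, 6 with DESeq2 and 0 to 2 on leaving out 1 liver. With limma on deposited CPM, log2 estimates changed sign for 5% against control in Arg1 (0.041) and Clock (0.0026), and for 1% against control in Nags (0.081), Otc (0.025) and Asl (0.046). With the clock score in the design, log2 estimates changed sign for 5% against control in Cps1 (0.34), Slc38a4 (0.29), Hsd17b6 (-0.17), Fgb (0.26), S100a8 (-1.87), S100a9 (-0.82), Krt7 (0.19), Clec4g (0.22), Lrat (0.24), Cd79a (-2.25), Per2 (-0.73), Ciart (-1.22), Bmal1 (1.12) and Clock (1.204), and for 1% against control in Cps1 (0.10), Slc25a15 (0.057) and Gls2 (-0.17), and for 5% against 1% in Cps1 (0.24). With upper-quartile factors, log2 estimates changed sign for 1% against control in Nags (0.016) and Asl (0.021), and for 5% against 1% in Slc25a13 (-0.0073). With no filter on low counts, log2 estimates changed sign for 1% against control in Asl (0.0064). With the stricter filter, log2 estimates changed sign for 1% against control in Nags (0.0054) and Asl (0.015). With voom, log2 estimates changed sign for 1% against control in Nags (0.0097). Without the sex term, log2 estimates changed sign for 1% against control in Gls2 (-0.027). After adding noncoding share as a covariate, log2 estimates changed sign for 5% against 1% in Slc25a13 (-0.12). Leaving out 1 liver gave both signs for Asl for 1% against control (-0.25 to 0.16), Ass1 for female against male (-0.051 to 0.16), Clock for 5% against control (-0.25 to 0.053), Cps1 for 5% against 1% (-0.37 to 0.19), Gls2 for 1% against control (-0.21 to 0.24), Lrat for 5% against control (-0.55 to 0.049), Nags for 1% against control (-0.17 to 0.16), Otc for 1% against control (-0.11 to 0.025), Slc25a13 for 5% against 1% (-0.14 to 0.24), Slc25a13 for 5% against control (-0.026 to 0.34) and Slc25a15 for 1% by sex (-0.23 to 0.34). The clock score is built from clock genes that are named here. With whole transcript length, chosen after seeing the data, the mean Ass1 to Arg1 ratio was 2.35 in controls, 1.83 at 1% and 1.04 at 5% oil, in place of 2.12, 1.65 and 0.939 with coding length. With no filter on low counts, the members Asl, Slc25a15 and Gls2 also passed for 5% against control. So did Oat, Agmat, Rhbg, Onecut1, Cebpa, Sds, Tat, Hsd17b6, Cyp7a1 and Ciart. Where fewer or more genes or livers entered a fit, the number tested changed with it; otherwise the cause was not tested. With 4 livers per diet, members near the threshold (Gls2, Slc25a15, Asl and Otc) were called by some tools and not by others.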
